A study of Sus scrofa with 12 samples.

Results

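The genes described here build and load the swine leukocyte antigens (SLA), the major histocompatibility complex (MHC) of the pig, and were measured in liver RNA on the Affymetrix porcine array. They were chosen by annotated gene symbol from a list of 9 members: SLA-1, SLA-2, SLA-DRA, SLA-DRB1, SLA-DQA1, SLA-DQB1, B2M, CD74 and TAP1. Of 24123 probe sets on the array, 20 carried 1 symbol that was a member, and they covered 8 of the 9 genes. B2M had 9 of these probe sets, SLA-DRB1 and TAP1 had 3 each, and SLA-2, SLA-DRA, SLA-DQA1, SLA-DQB1 and CD74 had 1 each. SLA-1 had none and appeared only on probe sets annotated to several genes. A further 8 probe sets carried several symbols that included a member, and these are described apart. Of the 20 member probe sets 16 were tested, and of the 8 with several symbols 6 were. The others, 2 each of SLA-DRB1 and TAP1 and 2 with several symbols, had mean log2 signals among the lowest 33.3% of the array.

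The animals were 12 German Landrace pigs labelled as adults, with 1 array per pig. They were labelled for stress response (low or high) and for aggressiveness (low or high). Each of the 4 combinations held 3 pigs, 1 female and 2 males, so that each level of a factor held 6. The labels do not say how either trait was scored, and name no further treatment or genotype. In an animal's name the first word gives stress response, the next aggressiveness and the number the replicate: high-low 3 had high stress response and low aggressiveness. The series asks how psychosocial stress appears in liver transcripts, and the comparisons below ask whether the antigen presentation genes differed with each trait.

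MHC class I molecules pair a heavy chain with beta-2-microglobulin and show peptides from inside the cell to CD8 T cells. The peptides come from the proteasome and are pumped into the endoplasmic reticulum by the TAP transporter. Class II molecules pair an alpha with a beta chain, are guided by the invariant chain CD74, and show peptides from the endocytic route to CD4 T cells. In liver, class I is made by nearly all cells, whereas class II is made mainly by Kupffer cells, dendritic cells, B cells and some endothelium. Heavy chains and class II chains are among the most variable genes of the pig, and the labels do not give SLA haplotypes. Whether an animal's alleles matched the array's probes was not tested.

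Signals are linear intensities per probe set, scaled by the authors, and precision is limited by how many arrays there were. The mean signal after trimming 2% at each end was 500.2 on every array. Between pairs of arrays, log2 signals of the tested probe sets correlated at 0.945 to 0.975. High-high 3 and high-low 3 had the lowest median correlations with the others, 0.953 and 0.957, although low-high 3 lay close to the latter at 0.957. Of the hepatocyte marker list 8 of 8 genes were measured, among them albumin (ALB), and their summed signal ran from 264966 to 406674. A difference was called in limma where the p-value, adjusted by Benjamini-Hochberg across the 15999 probe sets tested, was under 0.05. Fold changes are given on the scale of log2(signal + 16) with their standard error (SE), from a fit whose terms were sex, aggressiveness and stress response. The standard deviation between animals is given as SD.

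No member gene was called for stress response, aggressiveness, their interaction or sex. The call rate over all 15999 probe sets was 0% for stress response, 0% for aggressiveness, 0% for the interaction and 0.0688% for sex, so the absence of calls was shared with nearly the whole array. For each of the 8 genes, groups next to each other in mean signal overlapped. How often this holds over all probe sets was not computed, so it describes these genes without setting them apart. The class II genes shared an order across the animals that did not follow the groups, and the order of B2M, SLA-2 and TAP1 was less like that of SLA-DRA (r = 0.63, 0.29 and -0.05 over the 12 animals, with no test).

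**Figure D1:**
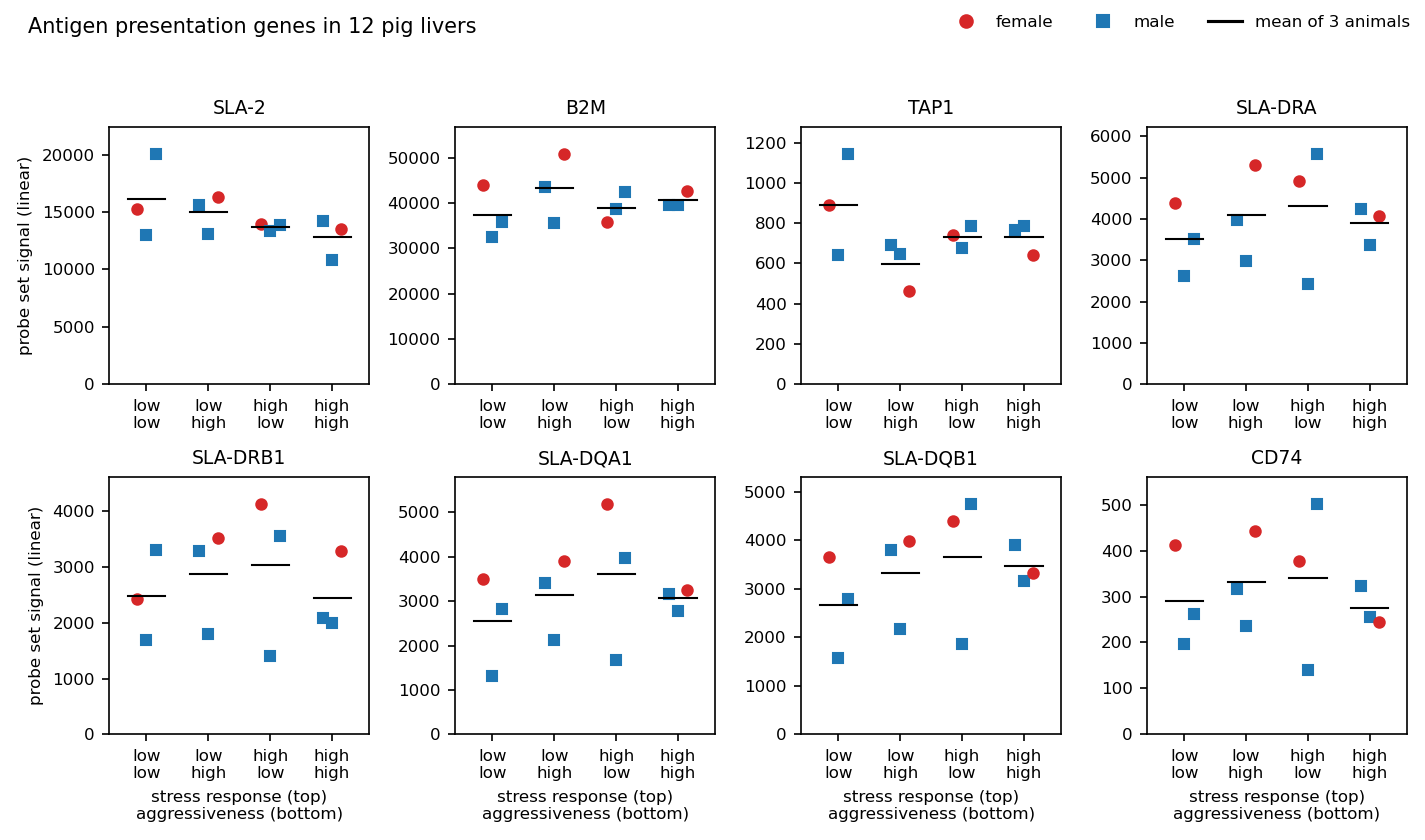
Linear probe set signal (vertical axes, starting at 0) of the 8 member genes in the 4 groups, named by stress response (top word) and aggressiveness (bottom word). Each point is 1 animal, circles are females and squares males, and each bar is the mean of 3 animals. For every gene, groups next to each other in mean signal overlapped, and how often this holds over all probe sets was not computed.

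SLA-2 encodes a classical class I heavy chain. Its only probe set with 1 symbol, Ssc.13780.5.S1_x_at, shares the number 13780 in its name with probe sets annotated to several class I genes. Whether it reads SLA-2 alone was not tested. The signals were 15284, 13036 and 20049 in the low-low animals and 15619, 13046 and 16306 in the low-high animals. They were 13920, 13363 and 13889 in the high-low animals and 14231, 10849 and 13488 in the high-high animals. Low-low 3 stood highest and high-high 2 lowest, and the stress response groups overlapped. Animals of low stress response had a mean of 15557 ± 2588 and those of high stress response 13290 ± 1236 (SD, n = 6 each), and none of the 6 animals with high stress response exceeded the median of the others, 15451. The difference was -0.22 ± 0.13 (SE), with a 95% interval of -0.51 to 0.08, and did not pass (limma, Benjamini-Hochberg adjusted p = 0.704). It lay between -0.28 and -0.13 when each animal was left out in turn. For aggressiveness the difference was -0.10 ± 0.13 and for the interaction -0.02 ± 0.28.

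B2M encodes beta-2-microglobulin, the light chain that every classical class I heavy chain needs to reach the cell surface. Its brightest probe set, Ssc.12348.1.S1_at, gave 43896, 32455 and 35827 in the low-low animals and 43640, 35712 and 50822 in the low-high animals. It gave 35864, 38709 and 42345 in the high-low and 39665, 39545 and 42626 in the high-high animals. Low-low 2 was lowest and low-high 3 highest, and the 4 groups overlapped. The highest animal was 1.57-fold above the lowest, and the residual SD of 0.16 (log2) stood at percentile 10.3 of the tested probe sets. The difference was -0.01 ± 0.12 for stress response (95% interval -0.27 to 0.25) and 0.14 ± 0.12 for aggressiveness (-0.12 to 0.40), and neither passed (limma, Benjamini-Hochberg adjusted p = 0.993 and 1).

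This probe set lay near the top of the array's range, at 66.5 to 76.8% of the highest signal of its array. The highest signals per array ran from 45963 in low-low 2 to 66150 in low-high 3, the same animals that were lowest and highest for B2M. Whether the upper end of the scale sets the order of animals for B2M was not tested.

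The other 8 B2M probe sets did not move as 1 gene. Ssc.5896.1.S1_at, also bright, ran only from 27966 to 32461, a 1.16-fold range, and its difference by stress response was 0.04 ± 0.10. Ssc.12348.2.S1_at gave a median of 13542 in low and 10831 in high stress response, with ranges of 12057 to 16111 and 10274 to 13190. Its difference of -0.27 ± 0.12 had an unadjusted p of 0.0377 and did not pass (limma, Benjamini-Hochberg adjusted p = 0.583).

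Ssc.7768.1.A1_at went the other way. It gave 719, 585 and 512 in the low-low and 612, 570 and 609 in the low-high animals, against 924, 695 and 1311 in the high-low and 1005, 673 and 1104 in the high-high animals. The 4 highest values all belonged to animals of high stress response, while high-low 2 and high-high 2 lay below low-low 1, so the groups overlapped. The difference was 0.62 ± 0.17, with a 95% interval of 0.25 to 0.99, an unadjusted p of 0.0036 and place 87 among the 15999 probe sets. It did not pass (limma, Benjamini-Hochberg adjusted p = 0.523), and 8.16% of all probe sets had an unadjusted p under 0.05 for stress response. The difference stayed between 0.49 and 0.70 when each animal was left out. The 9 probe sets therefore ranged from -0.27 to 0.62 for the same symbol and comparison. The RefSeq annotation of assembly Sscrofa11.1 lists 2 neighbouring loci named B2M, between TRIM69 and SPG11, and the array table does not say which locus a probe set reads.

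**Figure D2:**
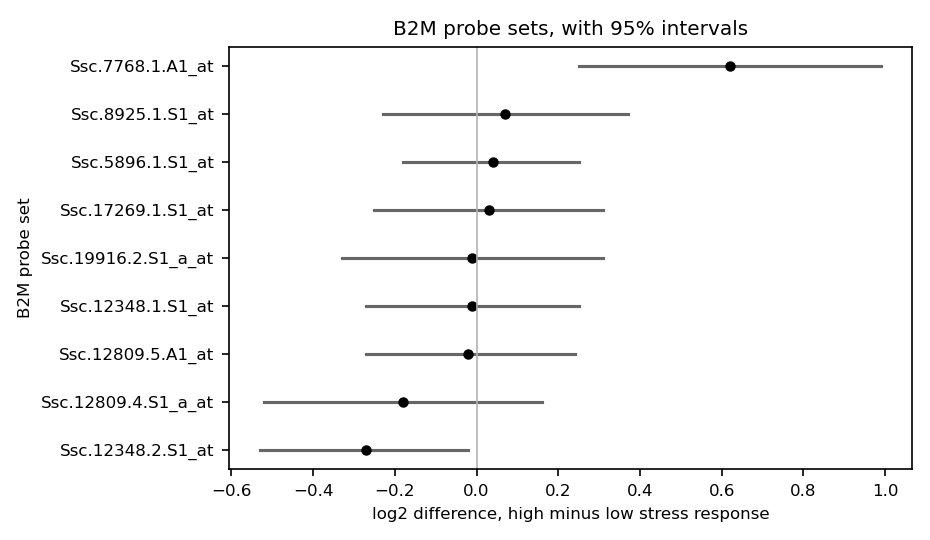
Difference between high and low stress response (horizontal axis, log2) for each of the 9 B2M probe sets, with points for the estimate and lines for the 95% interval. Of the 9, Ssc.7768.1.A1_at lay highest at 0.62 and Ssc.12348.2.S1_at lowest at -0.27, and the other 7 intervals included 0.

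TAP1 encodes a subunit of the transporter that carries peptides to class I molecules. Its tested probe set gave 889, 640 and 1143 in the low-low, 691, 645 and 461 in the low-high, 740, 675 and 784 in the high-low and 765, 788 and 643 in the high-high animals. The highest and the lowest animal, low-low 3 and low-high 3, both belonged to low stress response, where values spread widest (SD 238 against 60.1, n = 6 each). The difference by aggressiveness was -0.27 ± 0.17 (95% interval -0.65 to 0.10) and by stress response 0.03 ± 0.17. TAP1 was the only member gene whose interaction lay above 0, at 0.54 ± 0.32 (95% interval -0.17 to 1.24). None of these passed (limma, Benjamini-Hochberg adjusted p = 1, 0.984 and 0.999). The interaction ranged from 0.36 without low-low 3 to 0.80 without low-low 2. The other TAP1 probe sets, left untested, stayed between 2.60 and 68.5 in every animal.

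SLA-DRA encodes the alpha chain of the class II DR molecule. Signals were 4389, 2623 and 3511 in the low-low, 3975, 2978 and 5307 in the low-high, 4914, 2426 and 5570 in the high-low and 4250, 3373 and 4082 in the high-high animals. High-low held both the lowest and the highest animal of all 12. The group means were 4303 ± 1659 in high-low, 4087 ± 1169 in low-high, 3902 ± 466 in high-high and 3508 ± 883 in low-low (SD, n = 3 each). No neighbours in this order were separated. The differences of 0.10 ± 0.20 for stress response (95% interval -0.34 to 0.54) and 0.08 ± 0.20 for aggressiveness (-0.36 to 0.51) did not pass.

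SLA-DRB1 encodes the beta chain that pairs with SLA-DRA. Its tested probe set gave 2417, 1694 and 3309 in the low-low, 3294, 1794 and 3527 in the low-high, 4124, 1405 and 3549 in the high-low and 2077, 1996 and 3281 in the high-high animals. Again the high-low group spanned the whole range, with high-low 1 highest and high-low 2 lowest. Group means ran from 2451 ± 720 in high-high to 3026 ± 1433 in high-low (SD, n = 3 each). The difference was 0.00 ± 0.26 for stress response and 0.00 ± 0.26 for aggressiveness, with 95% intervals of -0.58 to 0.58 and -0.57 to 0.58. A change of either sign up to those bounds therefore lies within the interval. The other SLA-DRB1 probe sets with 1 symbol, left untested, stayed between 1.30 and 114.

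SLA-DQA1 encodes the alpha chain of the class II DQ molecule. Signals were 3496, 1313 and 2824 in the low-low, 3413, 2129 and 3897 in the low-high, 5183, 1673 and 3961 in the high-low and 3170, 2785 and 3254 in the high-high animals. Low-low 2 was lowest and high-low 1 highest, a 3.95-fold span. The high-high animals lay close together (SD 251), whereas the high-low animals did not (SD 1782). The difference was 0.24 ± 0.26 for stress response (95% interval -0.34 to 0.81) and 0.14 ± 0.26 for aggressiveness (-0.43 to 0.72).

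SLA-DQB1, the beta chain of DQ, lies next to SLA-DQA1 in the RefSeq annotation, which in turn lies next to SLA-DRB1. Its signals were 3652, 1578 and 2782 in the low-low, 3811, 2166 and 3977 in the low-high, 4398, 1852 and 4745 in the high-low and 3911, 3170 and 3321 in the high-high animals. The low animals were those that were low for SLA-DQA1. The difference of 0.26 ± 0.26 for stress response (95% interval -0.30 to 0.82) was the highest of the 8 genes and did not pass (limma, Benjamini-Hochberg adjusted p = 0.839).

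CD74 encodes the invariant chain, which blocks the groove of new class II molecules and steers them to the endosome. It lies outside the MHC, between TCOF1 and RPS14 in the RefSeq annotation. Signals were 413, 197 and 262 in the low-low, 317, 236 and 442 in the low-high, 377, 140 and 501 in the high-low and 323, 255 and 245 in the high-high animals. High-low 2 was lowest and high-low 3 highest. The difference was -0.06 ± 0.27 for stress response and 0.03 ± 0.27 for aggressiveness (95% intervals -0.65 to 0.53 and -0.56 to 0.62).

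Over the 8 measured member genes, 4 lay above 0 and 4 below for stress response, with a median of 0.01 against 0.02 over all 5810 genes with a tested probe set. TAP1, however, went to -0.02 with median centring and SLA-DRB1 to 0.01 with quantile normalization. For aggressiveness 6 lay above 0, with a median of 0.05 against 0, although SLA-DRB1 went to -0.02 with median centring. For the interaction 7 of 8 lay below 0, with a median of -0.29 against -0.01, although SLA-2 went to 0.06 with median centring. The class II genes stood at -0.27 ± 0.41 for SLA-DRA, -0.40 ± 0.54 for SLA-DRB1, -0.46 ± 0.53 for SLA-DQA1, -0.31 ± 0.53 for SLA-DQB1 and -0.33 ± 0.55 for CD74. Each SE exceeded its estimate. These genes shared an order across the animals, so the counts and medians over the 8 genes do not rest on independent readings. The direction also turned for 4 of these 5: without high-high 3 and high-low 3 the interaction was 0.27 for SLA-DRA, 0.11 for SLA-DQA1, 0.36 for SLA-DQB1 and 0.55 for CD74, while SLA-DRB1 stayed below 0 at -0.13. Leaving out high-low 3 alone brought SLA-DRA to 0.05, SLA-DQB1 to 0.02 and CD74 to 0.12, with SLA-DRB1 and SLA-DQA1 still below 0.

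**Figure D3:**
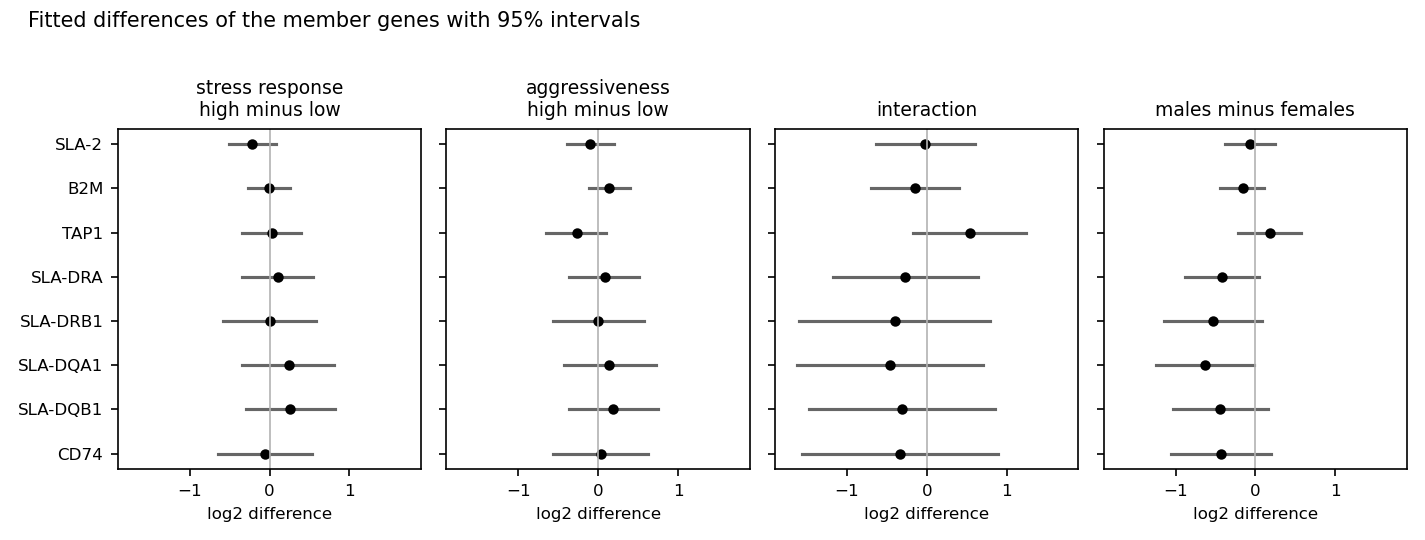
Fitted differences of the 8 member genes (horizontal axes, log2 units) for stress response, aggressiveness, their interaction and sex, as points with 95% intervals. The interval excluded 0 only for SLA-DQA1 in males minus females, at -1.24 to -0.02, and no gene passed after adjustment.

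Females lay above males for the class II genes in these 12 livers, without a call. SLA-DQA1 had a median of 3696 in the 4 females (3254 to 5183) and 2804 in the 8 males (1313 to 3961). SLA-DRA had 4652 in females (4082 to 5307) and 3442 in males (2426 to 5570). All 4 females exceeded the male median for SLA-DRA, SLA-DRB1, SLA-DQA1 and SLA-DQB1, and 3 of 4 did for CD74, while the sexes overlapped for every gene. These genes shared an order across the animals, so they are not independent readings of sex.

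Males minus females, the difference was -0.63 ± 0.28 for SLA-DQA1, -0.53 ± 0.28 for SLA-DRB1, -0.44 ± 0.27 for SLA-DQB1, -0.43 ± 0.29 for CD74 and -0.42 ± 0.21 for SLA-DRA. Only SLA-DQA1 had an unadjusted p under 0.05 (0.0435), where 5.21% of all probe sets did, and after adjustment it stood at 0.940 (limma, Benjamini-Hochberg). B2M stood at -0.16 ± 0.13, SLA-2 at -0.07 ± 0.14 (0.00 with median centring) and TAP1 at 0.18 ± 0.18. The median of the 8 genes was -0.43, against -0.03 over all 5810 genes. Since the class II genes among them shared an order across the animals, that median does not rest on independent readings. Without high-high 3 and high-low 3 the differences were larger, -0.93 ± 0.28 for SLA-DQA1, -0.82 ± 0.20 for CD74, -0.74 ± 0.25 for SLA-DQB1 and -0.66 ± 0.18 for SLA-DRA, and still did not pass (limma, Benjamini-Hochberg adjusted p of up to 0.753). That set holds no female with high stress response and high aggressiveness. For these genes high-high 3 was the lowest female and high-low 3 the highest male. Leaving them out therefore widens the gap between the sexes by construction and adds no support for it. The differences were smaller than in the main fit with an RNA quality measure as a covariate, the 3' to 5' ratio of the EF1A control probe sets. They were -0.58 ± 0.34 for SLA-DQA1, -0.44 ± 0.34 for SLA-DRB1, -0.29 ± 0.32 for SLA-DQB1, -0.25 ± 0.24 for SLA-DRA and -0.22 ± 0.33 for CD74.

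The clearest pattern among the members was a shared order of the animals in class II. Low-low 2 and high-low 2, both males, were the lowest pair for all 5 class II genes. Their deviations from the mean of each gene were -0.54 and -0.65 for SLA-DRA, -0.59 and -0.86 for SLA-DRB1, -1.14 and -0.79 for SLA-DQA1, -0.97 and -0.75 for SLA-DQB1 and -0.54 and -0.99 for CD74 (log2). Low-high 2, a male too, came next for each of the 5. High-low 1, high-low 3 and low-high 3 lay above the mean for each of the 5 genes, from 0.35 to 0.83. The low and high ends thus each held animals of more than 1 group, and high-low held animals at both ends.

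**Figure D4:**
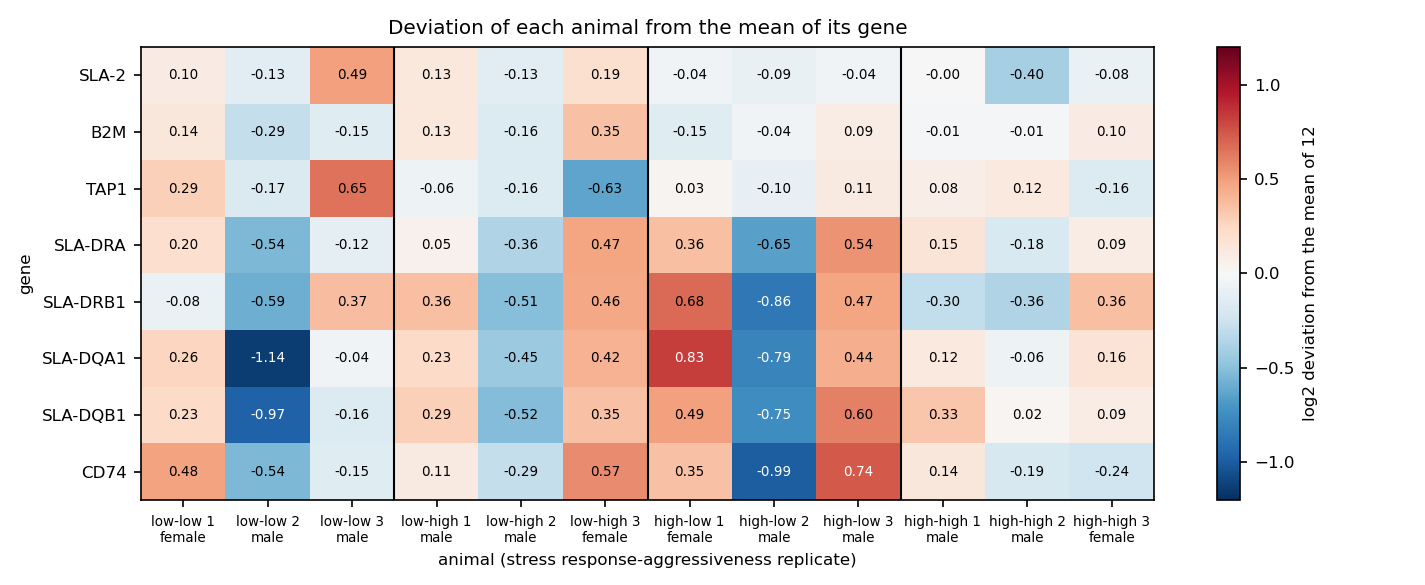
Log2 deviation of each animal (columns, by group, with sex) from the mean of the 12 for each member gene (rows), with the value printed in each cell and red for higher, blue for lower. The 5 class II rows share their low columns, low-low 2 and high-low 2, from -0.54 to -1.14, while high-low 2 lies between -0.10 and -0.04 for SLA-2, B2M and TAP1 and low-low 2 is low for those too, at -0.13 for SLA-2, -0.29 for B2M and -0.17 for TAP1.

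Correlations across the 12 animals were computed for 6 pairs of member genes. SLA-DQA1 and SLA-DQB1 correlated at r = 0.96 and rho = 0.94, and SLA-DRA and CD74 at r = 0.95 and rho = 0.95 (permutation tests, Benjamini-Hochberg adjusted p = 4e-05 for both values of r, resting on 2e-05, the smallest p that 100000 resamples can give). SLA-DRA and SLA-DQA1 correlated at r = 0.92 and rho = 0.94, and SLA-DRA and SLA-DRB1 at r = 0.83 and rho = 0.85 (permutation, adjusted p for r = 4e-05 and 0.00159). After stress response, aggressiveness and sex were removed, r was 0.96, 0.97, 0.89 and 0.79 for these pairs in the same order, so the shared order lay within the groups.

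Without low-low 2 and high-low 2, the animals farthest from the SLA-DRA median, r was 0.91 with CD74 and 0.88 with SLA-DQA1. For SLA-DQA1 with SLA-DQB1, where the same animals were left out, it was 0.89. For SLA-DRA with SLA-DRB1 it fell to 0.68 and no longer passed (permutation, adjusted p = 0.0526), so that relation rests in part on those animals.

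For B2M and TAP1 no shared order was detected, with r = -0.37 and rho = 0.00 (permutation, adjusted p = 0.225 and 1). B2M and CD74 correlated at r = 0.56 and rho = 0.63 (permutation, adjusted p = 0.0634 and 0.0377), and r fell to 0.35 without low-low 2 and low-high 3. Pairs with SLA-1 could not be computed.

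Among 5810 genes, those most like SLA-DRA by Pearson's r over the 12 animals were CD74 (0.948), SLA-DQB1 (0.946), SLA-DQA1 (0.922), EPB41L2 (0.922) and JAML (0.904). Thus 3 members filled the top places, and SLA-DRB1 stood at place 12 (0.833). B2M stood at place 229, SLA-2 at 1704 and TAP1 at 3617. The genes most like B2M were EF1ALPHA (0.986), C1R (0.983), HPX (0.974), UBB (0.968) and ALB (0.964), whose products include an elongation factor, a complement protease, the heme carrier hemopexin, ubiquitin and albumin. No member was among them, and the nearest was SLA-DRA at place 244. Those most like TAP1 were CYP2C91 (0.877), AKAP3 (0.862), RBL2 (0.839), the chemokine gene CCL8 (0.828) and WASHC4 (0.822). These values share arrays and scaling, describe the 12 animals and carry no test.

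Markers of the cells that make class II were read in the same animals. In bulk liver, fewer cells of a type and less RNA per cell cannot be told apart. Of the Kupffer cell and macrophage list 7 of 10 genes were measured, and their summed signal ran from 26079 to 33448 in low and from 27391 to 34649 in high stress response. Low-low 2 and high-low 2 stood at places 6 and 4 from the lowest of 12 in that sum. Averaged over the 7 genes as log2 deviation from the mean of the 12 animals, low-low 2 stood at 0.02 and high-low 2 at -0.14, lowest together with low-high 3. Low-high 3, high for class II, was also lowest in the sum.

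Of the dendritic cell list only XCR1 and CD83 were measured, and their sum was lowest in low-low 2 (314) and highest in low-high 3 (603), with high-low 2 at place 6. Of the 6 genes in the B cell list only JCHAIN was measured. Whether it tracks the B cells that make class II was not tested. JCHAIN was also highest in low-high 3 (1600), which led the sum of 6 T and NK cell markers too (1018). For stress response the Kupffer cell markers CD163 and MARCO had opposite signs, 0.57 ± 0.18 and -0.78 ± 0.25, with unadjusted p of 0.00758 and 0.00862, and neither passed (limma, Benjamini-Hochberg adjusted p = 0.523 for both). Endothelial markers (4 of 6 measured) summed to between 3878 and 5084 and bile duct markers (3 of 5) to between 140 and 312. In mean log2 deviation of the endothelial markers, low-low 2 (-0.61) and high-low 2 (-0.35) were lowest, as for class II. High-low 3 (0.39), low-high 3 (0.35) and high-low 1 (0.33) were highest. The summed signal gave another order. Low-low 2 and high-low 2 stood at places 4 and 5 from the lowest, high-high 3 was lowest and low-high 1 highest. VWF varied most of the endothelial genes, with a residual SD of 0.98 or 0.62 by probe set, against at most 0.35 for the others. The part of cell composition in the order of the animals was not tested.

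RNA quality, read as the log2 ratio of the 3' to the 5' control probe set of EF1A, lay apart by aggressiveness. The ratio was 0.892 ± 0.0878 in high and 0.721 ± 0.0257 in low aggressiveness (SD, n = 6 each), and the lowest of the former, 0.757, lay above the highest of the latter, 0.748. With this ratio as a covariate the aggressiveness difference of B2M went from 0.14 to -0.05 ± 0.24, and that of CD74 from 0.03 to -0.53 ± 0.54. Because the groups lay apart in it, such a fit can hardly tell the ratio from the trait. No member passed with the ratio or without it.

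Some probe sets annotated to several MHC genes varied more between animals than nearly all others on the array. Ssc.13780.11.S1_x_at, annotated to SLA-1 and LOC100513601, gave 7.85, 526 and 88.6 in the low-low, 2.08, 430 and 486 in the low-high, 278, 382 and 15.2 in the high-low and 199, 26.2 and 1030 in the high-high animals. The lowest animals of the 4 groups were low-low 1, low-high 1, high-low 3 and high-high 2, and each group also held animals far above its lowest. The values of 2.08, 7.85, 15.2 and 26.2 lie below 40.58, so no fold is given. That is the lowest mean log2 value among the tested probe sets, converted back to signal. The residual SD of 2.27 on the log2(signal + 16) scale stood at the 100th percentile of the tested probe sets.

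Ssc.210.6.S1_x_at, annotated to SLA-DRB1 and LOC106504372, gave 1860, 191 and 31.7 in the low-low, 801, 575 and 424 in the low-high, 1740, 240 and 851 in the high-low and 1268, 1253 and 847 in the high-high animals. Low-low 3 was lowest here, although it lay above the mean for the SLA-DRB1 probe set with 1 symbol. Its residual SD of 1.37 stood at percentile 99.8. A further probe set with the same symbols, Ssc.210.7.S1_x_at, gave 170, 663 and 831, then 568, 598 and 1321, then 1525, 663 and 614, and then 95.7, 107 and 903 in the same groups.

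Low-low 1, high-high 1 and high-high 2 were low for Ssc.210.7.S1_x_at and were the animals, with high-low 1, that were high for Ssc.210.6.S1_x_at. High-low 1 was high for both. The interaction of Ssc.210.7.S1_x_at was -2.62 ± 1.07, with an unadjusted p of 0.0336 where 3.87% of all probe sets were under 0.05, and did not pass (limma, Benjamini-Hochberg adjusted p = 0.999). It ranged from -3.57 without high-high 3 to -1.35 without low-low 1. The part of sequence differences between SLA alleles in these steps was not tested.

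Other class I probe sets with several symbols were steady. Ssc.13780.10.S1_x_at, annotated to SLA-1, SLA-2 and LOC100513601, ran from 8858 to 14596, and Ssc.13780.4.S1_x_at, annotated to SLA-2 and SLA-3, from 10865 to 16382. Their stress response differences were -0.09 ± 0.13 and -0.05 ± 0.13, beside -0.22 ± 0.13 for the SLA-2 probe set with 1 symbol. High-high 2 was lowest for these 3 class I probe sets. Ssc.13780.10.A1_at, with the same symbols as Ssc.13780.10.S1_x_at, was dim, from 157 in high-high 3 to 357 in low-high 3, and its stress response difference was -0.22 ± 0.18. The 2 probe sets with several symbols that were left untested stayed between 3.12 and 55.7.

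**Figure D5:**
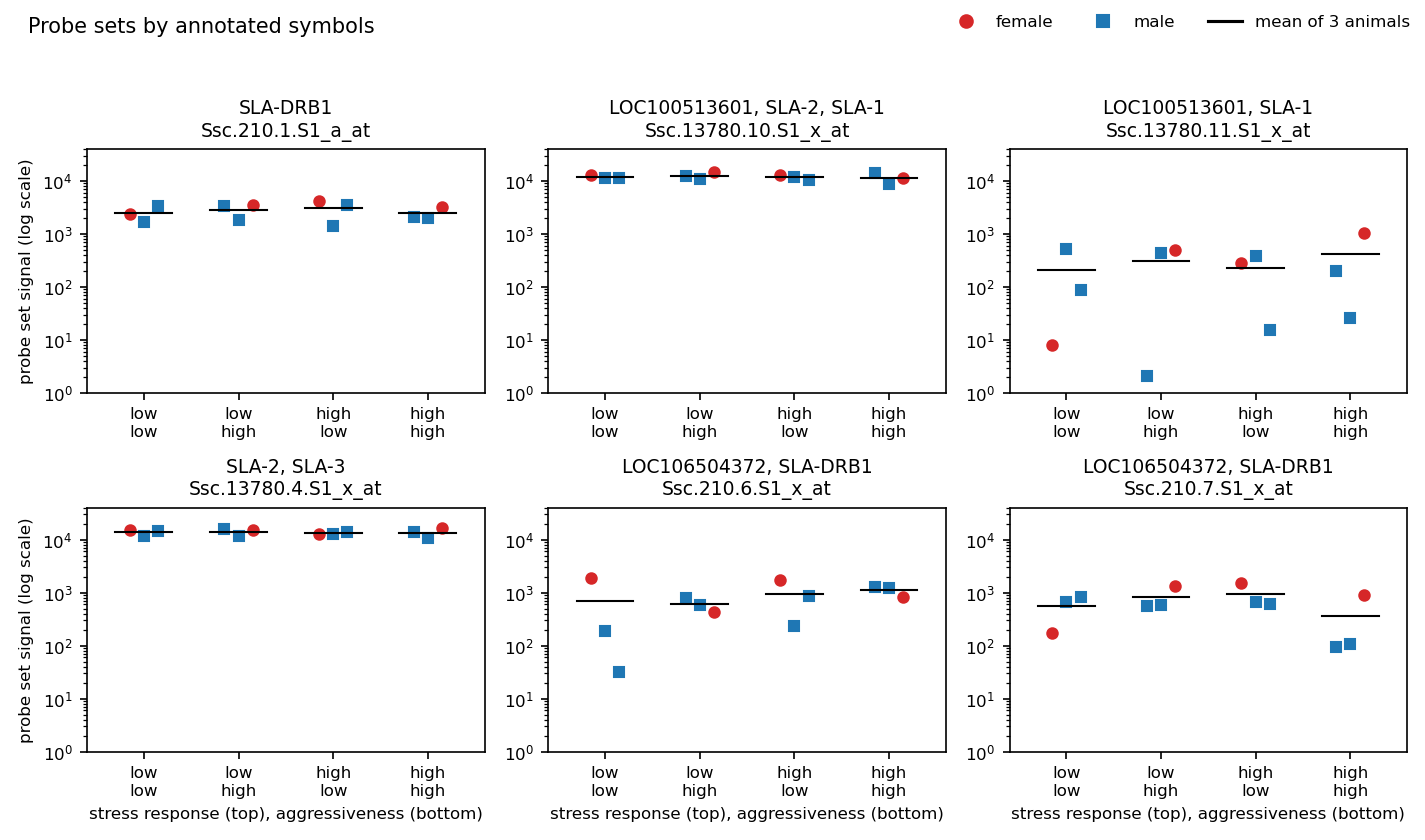
Signal (vertical axes, log scale) of the SLA-DRB1 probe set with 1 symbol and of 5 probe sets annotated to several MHC genes, by group, with circles for females, squares for males and bars for the mean of 3 animals. The probe set of SLA-1 and LOC100513601 spans 2.08 to 1030 and Ssc.210.6.S1_x_at spans 31.7 to 1860, while SLA-2 and SLA-3 stays between 10865 and 16382.

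Of 43 other antigen presentation genes listed by role, 28 were measured, and none passed for stress response, aggressiveness, the interaction or sex. For stress response 12 lay above 0 and 16 below, with a median of -0.02. Of the 28, 4 had an unadjusted p under 0.05, where 8.59% of all 5810 genes with a tested probe set did. Of class I peptide loading 4 of 8 genes were measured. CALR, the chaperone calreticulin, gave a median of 2409 in low (2128 to 2755) and 2965 in high stress response (2520 to 3799), a difference of 0.31 ± 0.12 (unadjusted p = 0.0302). PDIA3, the disulfide isomerase ERp57, gave 8877 (7714 to 9702) and 10727 (9234 to 13545), a difference of 0.33 ± 0.11 (unadjusted p = 0.0136). Its other probe sets gave 0.39 ± 0.12 and 0.35 ± 0.20. Without high-high 3 and high-low 3, CALR stood at 0.28 ± 0.15 and PDIA3 at 0.27 ± 0.13 (limma, unadjusted p = 0.0849 and 0.0636). CALR and PDIA3 also serve the folding of many other glycoproteins. TAPBP (tapasin) and CANX (calnexin), the other measured members, were not under that threshold.

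Of class II loading and processing 8 of 10 were measured. LGMN, the lysosomal endopeptidase legumain, gave a median of 17620 in low (15069 to 21665) and 13575 in high stress response (11372 to 15571), a difference of -0.38 ± 0.11 (unadjusted p = 0.00705). SLA-DMA, a chain of the DM molecule that exchanges peptides on class II, gave -0.46 ± 0.14 on its brighter probe set (unadjusted p = 0.00688), with ranges of 14558 to 21856 in low and 10720 to 15760 in high stress response. Its other probe set gave 0.05 ± 0.17. CALR, PDIA3, LGMN and SLA-DMA stood at adjusted p between 0.523 and 0.572 (limma, Benjamini-Hochberg), and the groups overlapped on the probe set that stands for each gene. On the PDIA3 probe set with a difference of 0.39 ± 0.12 they did not: it gave 421 to 534 in low and 561 to 737 in high stress response, and did not pass either. That probe set does not stand for the gene. The share of all probe sets that separate the stress response groups was not computed, so the split is not shown to be unusual.

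Among regulators, 7 of 12 were measured. CIITA, the coactivator that switches class II genes on, was dim, with signals from 20.0 to 144. Its lowest animals were high-high 2 (20.0) and low-low 1 (21.8), not the animals lowest for class II. Both values lie below 40.58, the lowest mean log2 value among the tested probe sets, converted back to signal. Whether the order of animals is reliable at such signals was not tested. The CIITA interaction was -1.60 ± 0.71 (unadjusted p = 0.0469, adjusted p = 0.999, limma) and rests in part on these low values. It ranged from -2.17 without high-high 1 to -1.02 without high-high 2. Without both high-high 3 and high-low 3 it was -1.57 ± 0.92 (limma, unadjusted p = 0.124). No regulator had an unadjusted p under 0.05 for stress response or aggressiveness, and none of the 28 genes or 8 members did for aggressiveness, where 3.22% of all probe sets were under it. Of 8 class I heavy chains and relatives 5 were measured, with a median of -0.07 for stress response and none under that threshold.

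Of the immunoproteasome, 4 of 5 were measured, and their stress response differences lay between -0.14 and 0.02. PSMB8, the subunit encoded next to TAP1, was chosen for mention after its values were seen. It gave 813 in low-low 3 and 1133 in high-low 3 and between 227 and 306 in the other 10 animals. Low-low 3 was also the highest animal for TAP1 and SLA-2, and high-low 3 the highest for SLA-3, at 10991. Both high animals were of low aggressiveness, and the difference by aggressiveness was -0.62 ± 0.35, which did not pass (limma, Benjamini-Hochberg adjusted p = 1).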

How the data were processed

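Each of 12 pigs gave 1 liver RNA sample, hybridised singly to the porcine array of Affymetrix. Values were the authors' deposited probe set signals, linear intensities made with GCOS 1.1.1 according to the submitters' processing notes. The summarisation and scaling steps are not given in the sources used here. Equal trimmed means show that arrays had been scaled before deposit, and the values were used as deposited. Groups came from the labels.

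From 23999 probe sets without controls, the lowest 33.3% by mean log2(signal + 16) were left out. The 15999 kept had a mean on that scale that, converted back to signal, was at least 40.58. They were tested as log2(signal + 16) with limma 3.58.1 in R 4.3.3. The fit held stress response, aggressiveness and sex (8 residual degrees of freedom), with the interaction added in a second fit (7). Where the labels name no litter or pen, p-values measure only the spread between these animals.

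Symbols came from the array's annotation table, and the brightest tested probe set of a gene stood for it. Member genes and lists were chosen with earlier results of these data known. Also named were wider-list genes with unadjusted p under 0.05 for stress response, aggressiveness or the interaction, and the 5 genes most like SLA-DRA, B2M and TAP1. Correlations used permutation tests (two-sided, 100000 resamples, scipy 1.17.1 in Python 3.11.15). Figures used matplotlib 3.10.9.

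Alternatives were no filter, the lowest 50% left out, added constants of 1 and 64, quantile normalization, median centring, trended robust variance, array weights, sex left out, the interaction kept, males only, the mean over probe sets, and each animal left out. Chosen after seeing the data were the omission of high-high 3 and high-low 3, and the EF1A ratio as a covariate. When tested on simulated data with this layout, the stress response fit recovered 92.4% of 66 probe sets changed by 2 (log2), 64.2% of 67 changed by 1 and 13.4% of 67 changed by 0.5. The changed probe sets were drawn at random from all those tested, with independent normal noise. Their median residual SD was 0.31, whereas the class II genes ran from 0.37 (SLA-DRA) to 0.52 (CD74). These rates are therefore not those of the class II genes.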

Additional observations from a re-analysis of the deposited data

Results flagged for a closer look

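In groups of 4 to 8 animals, an animal was singled out where its gap to the nearest other took up more of the group's range than Dixon's 95% critical value allows. Of 132 groups checked over 22 probe sets, 8 were singled out, and chance does so in about 1 in 20. No cause was tested for any of them.

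For SLA-2, low-low 3 (20049) stood above the other animals of low aggressiveness, and high-high 2 (10849) stood below the others of high stress response. For TAP1, low-low 3 (1143) stood above the other males. For SLA-DQB1, low-high 2 (2166) stood below the others of high aggressiveness. B2M probe set Ssc.12809.4.S1_a_at was low in high-high 3 (641) among the females and among animals of high aggressiveness, and in low-low 2 (775) among animals of low stress response. Ssc.210.6.S1_x_at, annotated to SLA-DRB1 and LOC106504372, was low in high-low 2 (240) among animals of high stress response.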

How the results depend on the processing

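No member gene passed for any comparison under any alternative run, and Pearson's r kept its side of the threshold for 5 of 6 pairs. B2M with CD74 passed by rho (permutation, adjusted p = 0.0377) but not by r (0.0634). The exception by r, SLA-DRA with SLA-DRB1, fell to 0.68 without the animals farthest from the SLA-DRA median. Signs turned where the estimate was near 0, but not only there. The interactions of SLA-DQA1 (-0.46), CD74 (-0.33), SLA-DQB1 (-0.31) and SLA-DRA (-0.27) turned without high-high 3 and high-low 3. With the EF1A ratio as a covariate, the aggressiveness difference of SLA-DQB1 turned from 0.19. The cause was not tested. For stress response, B2M went to 0.02 with array weights, 0.13 in males only and 0.03 as the mean over probe sets. CD74 went to 0.14 in males only. SLA-DRB1 went to 0.01 with quantile normalization and 0.04 with array weights, and TAP1 to -0.02 with median centring and -0.01 in males only. For aggressiveness, SLA-DRB1 went to -0.02 with median centring and -0.05 in males only. With the EF1A ratio as a covariate, B2M went to -0.05 ± 0.24, CD74 to -0.53 ± 0.54 and SLA-DQB1 to -0.20 ± 0.53. SLA-DRA went to -0.38 ± 0.39 and SLA-DRB1 to -0.25 ± 0.55. Each SE there exceeded the size of its estimate. The ratio lay apart by aggressiveness, so a fit with that covariate can hardly tell the ratio from the trait. For sex, SLA-2 went to 0.00 with median centring and 0.01 with that covariate. For the interaction, SLA-2 went to 0.06 with median centring and 0.05 in males only. Without high-high 3 and high-low 3 the interaction went to 0.55 for CD74, 0.11 for SLA-DQA1, 0.36 for SLA-DQB1 and 0.27 for SLA-DRA.

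Leaving out each animal turned the sign of 13 estimates. For stress response the ranges were -0.06 to 0.05 (B2M), -0.28 to 0.13 (CD74), -0.05 to 0.23 (SLA-DRA), -0.15 to 0.16 (SLA-DRB1) and -0.07 to 0.14 (TAP1). For aggressiveness they were -0.15 to 0.25 (CD74), -0.03 to 0.29 (SLA-DQA1), -0.05 to 0.23 (SLA-DRA) and -0.16 to 0.16 (SLA-DRB1). For the interaction they were -0.80 to 0.12 (CD74), -0.21 to 0.12 (SLA-2), -0.70 to 0.02 (SLA-DQB1) and -0.59 to 0.05 (SLA-DRA). In simulated data of this size, 7.5% of 67 interactions of 1 (log2) were recovered, so smaller interactions were seldom detectable there. Those probe sets were drawn from the whole array and not from the member genes. No paired analysis was possible because no number in the labels ties animals of different groups together.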
